A study of Homo sapiens with 18 samples.

Results

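HSP90 and mitochondrial chaperone genes were examined by RNA-seq in SH-SY5Y, an established neuroblastoma line of human origin whose cells take on neuron-like features when differentiated. The set held 10 of the 26372 genes of the deposited table, taken by symbol: HSP90AA1, HSP90AB1, HSPA8, TRAP1, HSPA9, HSPD1, HSPE1, CLPP, CLPB and LONP1. All 10 had a value in every library and passed the filter on low values. The genes were named for their roles, and the set was chosen by the FPKM of TRAP1, known to be higher in the deletion than in the WT libraries of day 18, so that difference is given as a description without a test. The day 18 differences of TRAP1 that use the same deletion or WT libraries, C14R against WT and against the deletion and both interactions with day, are treated in the same way.

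Cells carried a lentiviral ZNHIT3 construct built on the FUGW plasmid, with the wild-type sequence (WT), the C14R substitution or a deletion, which the treatment labels give as 251 to 254, 251 to 255 and 251 to 256 in replicates 1, 2 and 3. Infection took place on the day after plating. After a further 48 hours the medium was replaced by serum-free neurobasal/B27 plus medium with all-trans retinoic acid (10 µM), KCl (20 mM), the growth factor BDNF (50 ng/ml) and dibutyryl cyclic AMP (2 mM), for 18 days. There were 3 libraries for each construct at day 0 and 3 at day 18, 18 in all, made from total RNA depleted of ribosomal RNA. The titles of the deletion libraries call them Depleted. The protocols used here do not describe removal of the cell's own ZNHIT3, and no group without a construct was analysed here. The labels do not say whether replicates were separate cultures, so p-values measure the spread between these libraries.

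HSP90 proteins are ATP-dependent chaperones that hold client proteins near their folded state, and HSP70 proteins pass unfolded chains to them. HSP90 also works with the R2TP complex, which assembles box C/D small nucleolar ribonucleoproteins together with HIT-finger proteins such as ZNHIT3. Mitochondria have their own machinery: HSPA9 pulls proteins through the inner membrane, the HSPD1 and HSPE1 chaperonin folds them, TRAP1 is the HSP90 of the organelle, CLPB resolves aggregates in the intermembrane space, and LONP1 and CLPP degrade proteins in the matrix. All of these proteins are encoded in the nucleus, and the mitochondrial ones are imported.

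Levels were compared between genes as FPKM, in which the fragments of a gene are divided by its transcript length and by the size of the library. In the WT libraries of day 0 the 3 cytosolic chaperones led, with HSPA8 at 627 ± 7.63 FPKM (SD, n = 3), HSP90AB1 at 614 ± 5.16 and HSP90AA1 at 515 ± 14.7. The mitochondrial chaperonin followed, with HSPD1 at 299 ± 2.86 and HSPE1 at 147 ± 7.001 FPKM. HSPA9 stood at 84.4 ± 2.45, TRAP1 at 35.1 ± 0.924, LONP1 at 29.1 ± 1.05, CLPB at 24.3 ± 0.746 and CLPP at 17.5 ± 0.984 FPKM. No 2 neighbours in this order overlapped between libraries. By day 18 in WT, HSP90AB1 had passed HSPA8, and CLPB stood above TRAP1 and LONP1, again with no overlap between neighbours. In the variant libraries of day 18 the values of CLPB and TRAP1 overlapped.

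**Figure D1:**
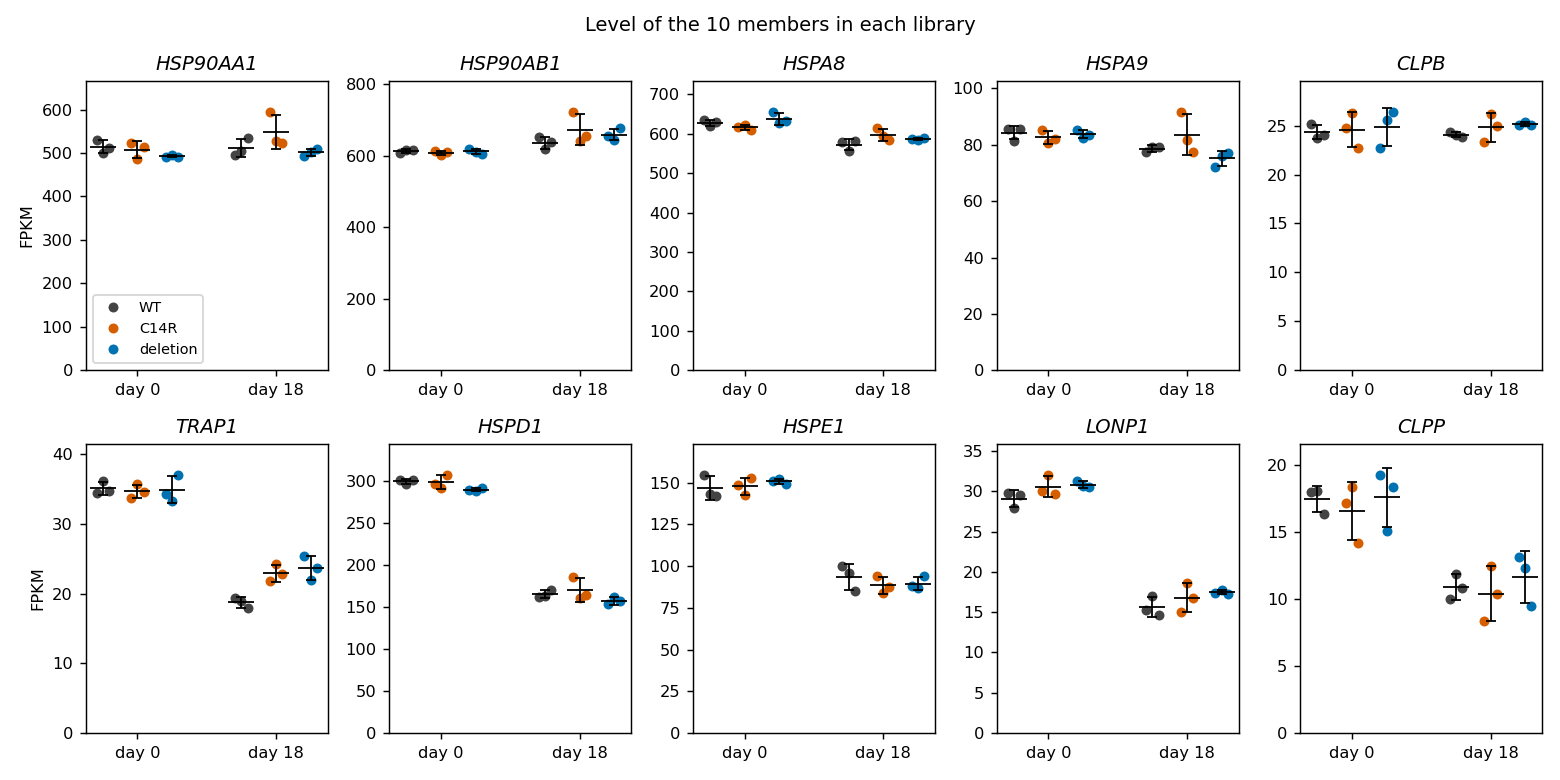
Level of each gene in FPKM (vertical axes, starting at 0) in the 18 libraries, by day (horizontal axis) and construct (colour); points are libraries, and bars are the mean and SD of 3. TRAP1, HSPD1, HSPE1, LONP1 and CLPP are lower in all day 18 libraries than in any day 0 library, and the WT libraries of day 18 lie below those of both variants for TRAP1 (17.9 to 19.4 FPKM) and HSPA8 (556 to 580.5 FPKM).

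The genes lie at separate loci (GENCODE 29, GRCh38) apart from HSPD1 and HSPE1, which share a locus on chromosome 2. HSPD1 was annotated at 197486581 to 197516737 on the minus strand and HSPE1 at 197499994 to 197503457 on the plus strand, so the whole of HSPE1 (3464 bases) lies within the outer bounds of HSPD1. In RefSeq (GRCh38.p14) their start sites face away from each other with 104 bases between them. TRAP1 (chromosome 16, 3651639 to 3717597, minus strand) overlaps DNASE1 on the other strand over 28505 bases. Shorter overlaps with coding genes on the other strand include HSPD1 with MOB4 (1167 bases), HSP90AA1 with WDR20 (197) and LONP1 with RPL36 (43). RPL36 averaged 1226 FPKM over the libraries. Whether the authors counted by strand is not given in the sources used here, so reads in these overlaps could have gone to either gene.

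Promoter windows from RefSeq (GRCh38.p14), from 250 bases before to 50 after a start site, were given for 9 of the 10 genes, all but CLPP, in 14 windows. They are shown because the HSPD1 and HSPE1 pair moved together and because 5 genes of the matrix fell with differentiation while the cytosolic ones moved little. Each was searched for the heat shock element of inverted nGAAn units (GAANNTTC or TTCNNGAA), the cyclic AMP response element TGACGTCA and the E-box CACGTG. Each of these reads the same on both strands, and the motifs were picked after the expression values had been seen. A match is a description of the letters in the window only. Capitals mark the bases of the named element where a match lies wholly within the printed stretch; another HSP90AA1 match runs past the end of its stretch.
HSP90AA1 heat shock element, chr14:102087109-102087138, minus strand: gggttcTTCCGGAAGGTTCgggaggcttct
HSP90AB1 heat shock element, chr6:44247772-44247801, plus strand: agcaggTTCTGGAAGATTCatgggctcctt
HSPA8 heat shock element, chr11:123062348-123062377, minus strand: ggggcgagcttGAAAGTTCCAGAAcgctgc
HSPD1 heat shock element, chr2:197500061-197500090, minus strand: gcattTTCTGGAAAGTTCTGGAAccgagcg
HSPE1 E-box, chr2:197500345-197500374, plus strand: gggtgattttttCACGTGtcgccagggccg
LONP1 E-box, chr19:5720341-5720370, minus strand: ctcacagccttcCACGTGaccggaaaaggc
HSP90AB1 cyclic AMP element, chr6:44246959-44246988, plus strand: ttttcggaccaTGACGTCAaggtgggctgg
TRAP1 upstream stretch with its cyclic AMP element, chr16:3717598-3717774, minus strand: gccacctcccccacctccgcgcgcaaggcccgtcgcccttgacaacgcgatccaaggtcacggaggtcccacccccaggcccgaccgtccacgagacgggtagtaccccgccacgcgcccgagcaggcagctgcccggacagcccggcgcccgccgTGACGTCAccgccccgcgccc

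Heat shock elements were found for 5 of the 9 genes: the 3 cytosolic chaperones, HSPD1 and, with TTCNNGAA alone, HSPA9. Of all 35116 windows, 13.5% held at least 1 of these patterns. This share and those below are per window, whereas HSP90AB1 had 3 windows and HSP90AA1, HSPD1 and LONP1 had 2 each. Counts of genes are therefore not directly comparable with them. HSPA9, HSPD1, HSPE1 and LONP1 held the E-box, present in 7.26% of windows, and HSPD1 and HSPE1 share 1 copy between their start sites. TRAP1, at position -94 from its start, and HSP90AB1, at position -131, held the cyclic AMP element, present in 1.85% of windows. The CLPB window held none of these letters. In HSP90AB1 the cyclic AMP element and the heat shock elements lay in separate windows, each with its own start site. The same held for the E-box and the heat shock elements of HSPD1.

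Differentiation was read as day 18 against day 0 within each construct, a contrast that also holds the change of medium. Of the 6 genes whose products work in the mitochondrial matrix, 5 fell in each of the 3 constructs: TRAP1, HSPD1, HSPE1, LONP1 and CLPP. Their WT level at day 18 was between 53.3% (TRAP1) and 63.7% (HSPE1) of that at day 0. The cytosolic chaperones, HSPA9 and CLPB stayed between 89.8% and 111% of their day 0 level in all 3 constructs. In bulk libraries, less RNA of a gene per cell and fewer cells that make it cannot be told apart.

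In counts, the linear model on log2(FPKM + 1) (limma, Benjamini-Hochberg adjustment over 13785 genes, threshold 0.05) called 0 of the 10 genes higher and 6 lower in WT. In that comparison 72.2% of all tested genes were called, 38.2% higher and 34.0% lower. C14R gave 2 higher and 5 lower (72.9% of all genes called, 37.9% higher and 35.0% lower), and the deletion 1 higher and 7 lower (73.0% called, 38.6% higher and 34.4% lower). The share of the set called, with higher and lower genes counted as 1 total, was therefore close to that of all genes. The split by direction was not close. In each construct a smaller share of the set than of all genes was called higher, and a larger share was called lower. TRAP1 is counted among the lower genes in each construct, although its WT and deletion values of day 18 were those the set was chosen by. With median-of-ratios scaling the counts were 0 higher and 7 lower in WT, 0 and 6 in C14R and 0 and 7 in the deletion. Among all genes called under that scaling, 48.7%, 48.4% and 48.4% were higher in WT, C14R and the deletion. Quantile normalization gave 3 higher and 5 lower in each construct (50.2%, 49.4% and 49.7% of all called genes higher in WT, C14R and the deletion). Leaving out small RNA genes gave 3 and 5 in WT, 5 and 5 in C14R and 4 and 5 in the deletion. Of all called genes, 68.7%, 66.5% and 69.5% were then higher. The median change of the 10 genes in WT was -0.38 on the log2 scale, beside 0.03 over all tested genes.

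**Figure D2:**
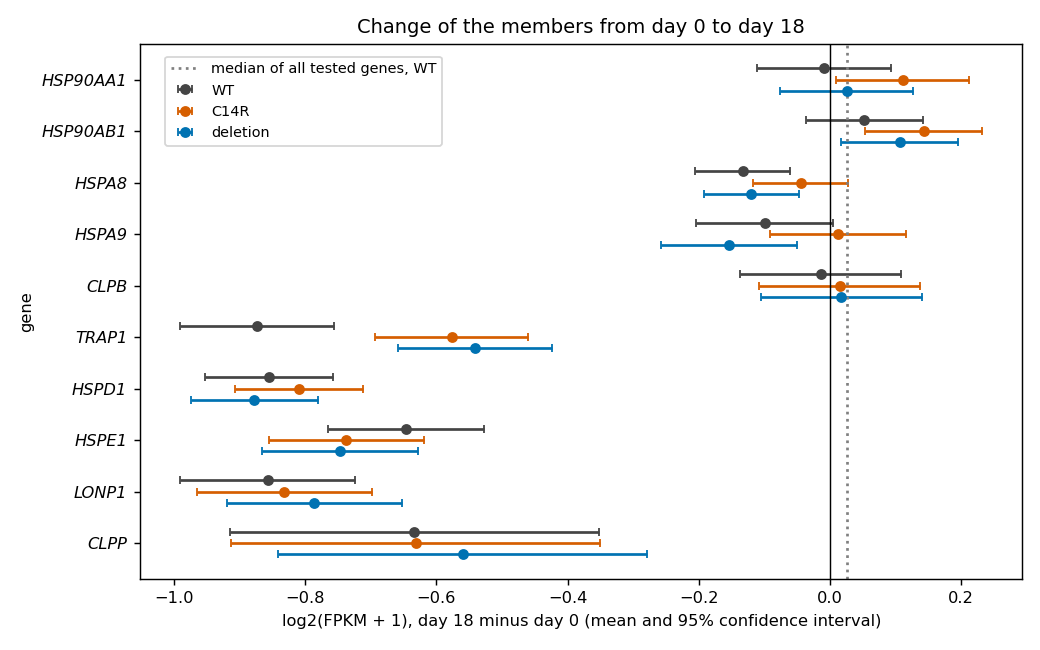
Change in log2(FPKM + 1) from day 0 to day 18 (horizontal axis; means with 95% confidence intervals, 3 libraries a group) for each gene (vertical axis) and construct (colour). The lower 5 genes lie between -0.88 and -0.54, while the upper 5 lie between -0.15 and 0.14, near the median of all genes (dotted line).

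HSPD1, the ring subunit of the mitochondrial chaperonin known as HSP60, held 300.5, 296 and 301 FPKM in the WT libraries of day 0, and 162, 163 and 170.1 in those of day 18. C14R libraries went from 296, 291 and 307 to 186, 160.1 and 164 FPKM, and deletion libraries from 289, 288 and 292 to 153, 162 and 157. No day 18 library came near a day 0 library. The log2 change was -0.86 in WT (SE 0.05, limma adjusted p = 2.23e-11), -0.81 in C14R (adjusted p = 4.82e-11) and -0.88 in the deletion (adjusted p = 1.51e-11).

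Its lid, HSPE1 or HSP10, went from 155, 143 and 142 to 99.8, 95.7 and 85.0 FPKM in WT. In C14R it went from 149, 142 and 153 to 94.0, 84.0 and 87.2, and in the deletion from 151, 152 and 149 to 87.9, 86.9 and 93.8 FPKM. These groups did not overlap between days either. The log2 changes were -0.65, -0.74 and -0.75 (SE 0.06, largest limma adjusted p = 1.34e-08, in WT). The ratio of HSPD1 to HSPE1, which no scaling of a whole library can move, was 2.04 ± 0.0897 (SD, n = 3) at day 0 and 1.77 ± 0.200 at day 18 in WT, with overlapping libraries. The 6 WT libraries lay within 1.62 to 2.12 HSPD1 per HSPE1. In C14R it went from 2.01 ± 0.0250 to 1.92 ± 0.0509 and in the deletion from 1.92 ± 0.0317 to 1.76 ± 0.0954, with day 18 below day 0 and no overlap in either.

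LONP1, the AAA+ protease that degrades damaged matrix proteins, held 29.8, 27.9 and 29.6 FPKM in the WT libraries of day 0 and then 15.3, 17.0 and 14.6 in those of day 18. The C14R libraries gave 30.002, 32.1 and 29.7 and then 15.0, 18.6 and 16.8, and the deletion libraries 31.3, 30.7 and 30.5 and then 17.4, 17.7 and 17.2 FPKM. Every day 18 value was below every day 0 value. The log2 changes were -0.86, -0.83 and -0.79 (SE 0.06, largest limma adjusted p = 4.85e-09, in the deletion).

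CLPP, the peptidase chamber that is fed by the unfoldase CLPX, was the lowest and the most variable of the set. WT libraries held 18.0, 18.1 and 16.3 FPKM on day 0 and then 10.0, 11.9 and 10.8 on day 18. The C14R values were 17.2, 18.4 and 14.2 and then 8.37, 12.5 and 10.4, and the deletion values 19.3, 15.1 and 18.4 and then 13.2, 12.4 and 9.46 FPKM. The days did not overlap within a construct, although the SD reached 19.7% of the mean in C14R at day 18. The log2 changes were -0.63, -0.63 and -0.56 (SE 0.13, largest limma adjusted p = 0.00115, in the deletion). CLPX itself went from 20.2 ± 0.379 to 16.7 ± 1.68 FPKM in WT (log2 change -0.26, limma adjusted p = 0.00106).

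TRAP1, the mitochondrial HSP90, held 34.5, 36.2 and 34.7 FPKM in WT libraries of day 0, and 19.4, 18.9 and 17.9 in those of day 18. In C14R it went from 33.8, 35.7 and 34.5 to 21.7, 24.2 and 22.9, and in the deletion from 34.3, 33.3 and 37.1 to 25.4, 21.9 and 23.7 FPKM. The day 0 libraries of the 3 constructs were mixed, and all day 18 libraries were lower, with WT lowest. The log2 change was -0.87 in WT (SE 0.06, limma adjusted p = 2.00e-10), -0.58 in C14R (adjusted p = 4.99e-08) and -0.54 in the deletion (adjusted p = 1.11e-07). The WT and deletion changes use the day 18 libraries by which the set was chosen. That choice can overstate the fall in WT and understate it in the deletion, and its effect was not tested. DNASE1, the gene that overlaps TRAP1, held 3.28 to 3.91 FPKM over the libraries of day 0 and 3.91 to 5.31 over those of day 18, with the later day higher in each construct.

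HSPA9, also called mortalin, is the HSP70 of the matrix and the motor of protein import. It held 85.8, 81.5 and 85.8 FPKM in the WT libraries of day 0 and then 77.3, 79.3 and 79.3 in those of day 18. The C14R libraries gave 85.3, 80.6 and 82.2 and then 91.6, 81.7 and 77.4, and the deletion libraries 85.2, 82.3 and 83.6 and then 72.3, 76.0 and 77.2 FPKM. The days were separate in WT and the deletion and overlapped in C14R. As deposited it fell in the deletion (log2 change -0.15, SE 0.05, limma adjusted p = 0.00973), a call lost without deletion replicate 1 of day 18 (-0.13, adjusted p = 0.0507) and turned to 0.07 with small RNA genes left out. Meanwhile the values were -0.10 in WT (adjusted p = 0.0780) and 0.01 in C14R (adjusted p = 0.834). Without C14R replicate 1 of day 18, which stood apart from the other libraries, the C14R value was -0.06 and the adjusted p in WT 0.0150. HSPD1 was present at 3.55 ± 0.0703 times the FPKM of HSPA9 in WT at day 0 and at 2.10 ± 0.0460 times at day 18, with 3.60 and 2.03 in C14R and 3.46 and 2.09 in the deletion. The libraries of the days did not overlap in this ratio.

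CLPB, the disaggregase, had group means that moved little with time, although its SD reached 7.78% of the mean (deletion, day 0). The WT libraries held 25.2, 23.8 and 24.1 FPKM on day 0 and then 24.3, 24.1 and 23.9 on day 18, and all 18 libraries lay between 22.7 and 26.4. Its log2 changes were -0.01, 0.01 and 0.02 in WT, C14R and the deletion (limma adjusted p = 0.837, 0.829 and 0.801). The 95% intervals ran from -0.14 to 0.14 over the 3 constructs. TRAP1 relative to CLPB went from 1.45 ± 0.0769 to 0.778 ± 0.0248 in WT, from 1.41 to 0.923 in C14R and from 1.41 to 0.943 in the deletion.

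Of the cytosolic HSP90 pair, HSP90AB1 is made constitutively and HSP90AA1 is the stress-inducible form. HSP90AB1 held 608, 617 and 617 FPKM in the WT libraries of day 0 and then 652, 619 and 638 in those of day 18. The C14R libraries gave 612, 603 and 610.2 and then 722, 641 and 655, and the deletion libraries 619, 612 and 606 and then 656, 645 and 677 FPKM. Day 18 lay above day 0 in each construct, though the nearest WT libraries differed by little. It rose in C14R (log2 change 0.14, SE 0.04, limma adjusted p = 0.00588) and the deletion (0.11, adjusted p = 0.0321), and the WT value was 0.05 (adjusted p = 0.275). Both calls were lost under median-of-ratios scaling (0.10 and 0.05, limma adjusted p = 0.0533 and 0.329). The C14R call was also lost with only the libraries compared (adjusted p = 0.0761), and its value was 0.09 without replicate 1 of day 18 (adjusted p = 0.0191). The deletion call was lost without replicate 2 or 3 of day 0 or replicate 1 or 3 of day 18 (limma adjusted p = 0.0681, 0.0850, 0.0577 and 0.121). Quantile normalization gave larger values of 0.50, 0.65 and 0.59 in WT, C14R and the deletion. Leaving out small RNA genes gave 0.26, 0.33 and 0.33, where the medians of all genes were 0.21, 0.18 and 0.23.

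HSP90AA1 held 530.2, 501 and 513 FPKM in the WT libraries of day 0 and then 495, 506 and 534 in those of day 18, which overlapped. The C14R libraries went from 523, 486 and 514 to 594, 529 and 523, and the deletion libraries from 491, 496 and 492 to 494, 503 and 509 FPKM. It rose in C14R (log2 change 0.11, SE 0.05, limma adjusted p = 0.0467), a call that was lost without C14R replicate 1 of day 18 (0.05, adjusted p = 0.242) and without replicate 2 or 3 of day 0 (adjusted p = 0.187 and 0.0663). It was also lost under median-of-ratios scaling (0.07, limma adjusted p = 0.220), with only the libraries compared (adjusted p = 0.180), with array weights (adjusted p = 0.210) and with no filter on low values (adjusted p = 0.0590). The changes in WT and the deletion were -0.01 (adjusted p = 0.872) and 0.03 (adjusted p = 0.646). The ratio of HSP90AB1 to HSP90AA1 was 1.19 ± 0.0431 at day 0 and 1.25 ± 0.0642 at day 18 in WT and 1.20 ± 0.0361 and 1.23 ± 0.0218 in C14R, with overlapping libraries. In the deletion it went from 1.24 ± 0.0157 to 1.31 ± 0.0269 without overlap.

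HSPA8, the constitutive cytosolic HSP70, held 634, 619 and 629 FPKM in the WT libraries of day 0 and then 580.1, 556 and 580.5 in those of day 18. The C14R libraries gave 617, 622 and 608 and then 613, 594 and 585, and the deletion libraries 655, 627 and 631 and then 587, 585 and 589 FPKM. Days were separate in WT and the deletion and overlapped in C14R. As deposited it fell in WT (log2 change -0.13, SE 0.03, limma adjusted p = 0.00221) and the deletion (-0.12, adjusted p = 0.00472), directions that turned under 2 other scalings. The C14R value was -0.04 (adjusted p = 0.252). The small nucleolar RNAs in its introns, SNORD14C, SNORD14D and SNORD14E, and SNORD63 in HSPA9, are listed at 0 in all 18 libraries.

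How the libraries were scaled decided the direction for the genes with small changes. When 2264 small RNA genes were left out and the rest rescaled, the median WT change over the tested genes was 0.21 in place of 0.03. Of the genes called, 68.7% were then higher, in place of 52.9%. HSPA8 then rose or was higher (0.08 in WT, adjusted p = 0.0558; 0.14 in C14R and 0.10 in the deletion, limma adjusted p = 0.00120 and 0.0131), and HSP90AA1 rose in WT (0.20, adjusted p = 0.00184). Relative to the median of all genes, HSP90AA1 was then at -0.01 and HSPA8 at -0.13. Quantile normalization gave rises for HSP90AA1 (0.42) and HSPA8 (0.35) in WT, while the median of all genes was -0.01. HSPD1, HSPE1, LONP1, CLPP and TRAP1 fell in all 3 constructs under each of the 4 scalings tried.

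**Figure D3:**
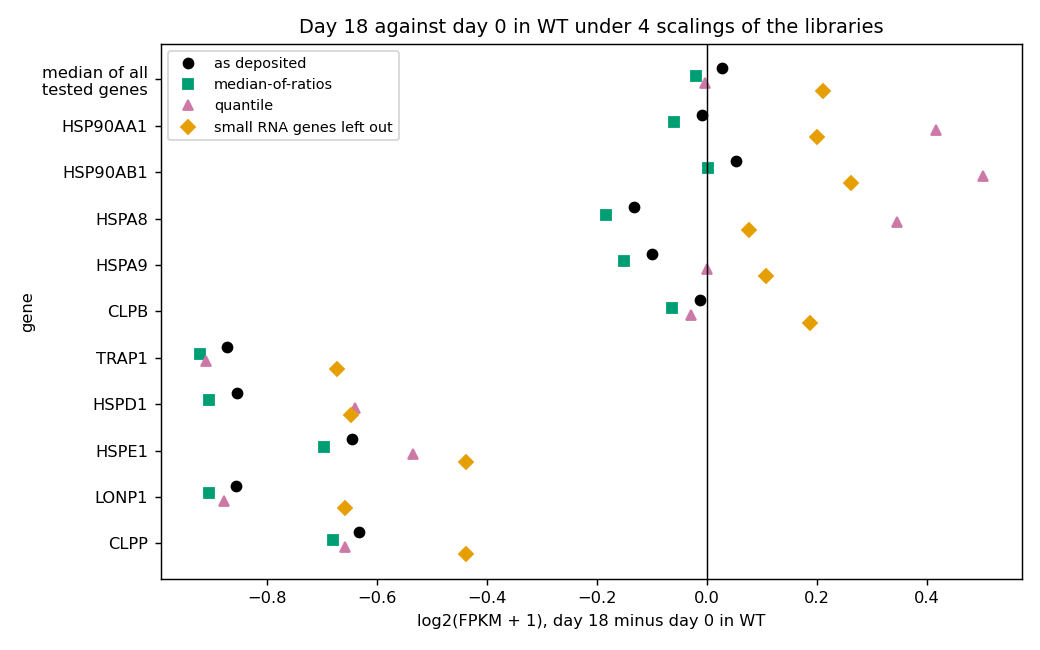
Change in log2(FPKM + 1) from day 0 to day 18 in WT (horizontal axis) for each gene and for the median of all tested genes (vertical axis), with the libraries as deposited and under 3 other scalings (symbols). The lower 5 genes stay at -0.44 or lower under each scaling, whereas HSP90AA1, HSPA8, HSPA9 and CLPB lie on either side of 0.

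Variant libraries were then compared with WT at each day. At day 0, 0 of the 10 genes passed the limma test for C14R (0 genes of the table, 0% called) or the deletion (0.0290% called), and 0 had an unadjusted p under 0.05 in either (2.81% and 6.22% of all genes). C14R against the deletion gave 0 of 10 at day 0 as well (0.0580% called), with 0 at an unadjusted p under 0.05 beside 9.84% of all genes. The narrowest 95% intervals at day 0 were those of HSPA8, from -0.10 to 0.05 for C14R minus WT and from -0.05 to 0.10 for the deletion. The widest were those of CLPP, from -0.36 to 0.20 and from -0.28 to 0.29.

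At day 18, the difference known beforehand was that of TRAP1. The 3 WT libraries held 17.9 to 19.4 FPKM, the 3 C14R libraries 21.7 to 24.2 and the 3 deletion libraries 21.9 to 25.4. All variant libraries lay above all WT libraries, and the variants overlapped. C14R stood at 122% of WT (log2 difference 0.28, 95% interval 0.16 to 0.39) and the deletion at 126% (0.32, 0.20 to 0.44). C14R minus the deletion was -0.04, with an interval from -0.16 to 0.07. Both contrasts use the same WT libraries, which were also those with the lowest TRAP1 values. As the set was chosen by these WT and deletion libraries, the intervals describe the spread between libraries and are not a test. Against HSPD1, another matrix chaperone with a like fall, TRAP1 was at a ratio of 0.114 ± 0.00755 in WT, 0.136 ± 0.0173 in C14R and 0.151 ± 0.0152 in the deletion. In this ratio C14R overlapped WT and the deletion did not. Against LONP1, which also fell, the ratio was 1.11 to 1.27 in WT, 1.30 to 1.45 in C14R and 1.24 to 1.46 in the deletion. There the deletion overlapped WT and C14R did not. Against CLPB it was 0.750 to 0.798 in WT, 0.914 to 0.934 in C14R and 0.866 to 1.01 in the deletion, so neither variant overlapped WT. Which variant was separate from WT thus depended on the gene used for the ratio.

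ZNHIT3, counted from the construct and the cell's own gene together, differed between the same groups. Day 18 levels were 1103 to 1193 FPKM with WT, 599.7 to 756 with C14R and 294 to 313 with the deletion. The same constructs gave 531 to 542, 419 to 432 and 292 to 310.1 FPKM when differentiation began. Its part in the TRAP1 difference was not tested. At day 0 the TRAP1 differences from WT were -0.02 for C14R and -0.01 for the deletion, with 95% intervals from -0.14 to 0.10 and from -0.13 to 0.11. The change over time was 0.30 less negative in C14R than in WT (95% interval 0.13 to 0.46) and 0.33 in the deletion (0.17 to 0.50). These intervals use the same day 18 libraries and are likewise not a test. On day 18 DNASE1 held 3.91 to 4.77 FPKM in WT, 4.29 to 5.31 in C14R and 4.60 to 5.03 in the deletion, which overlap.

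**Figure D4:**
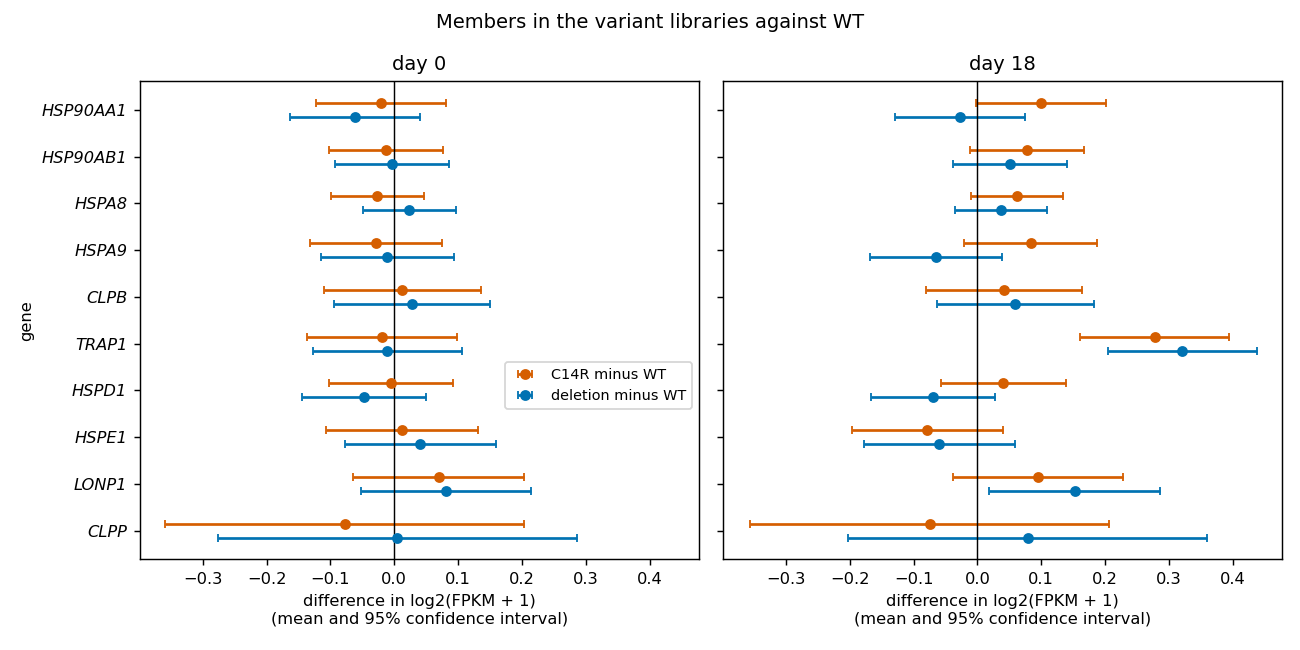
Difference in log2(FPKM + 1) from WT (horizontal axes; means with 95% confidence intervals, 3 libraries a group) for each gene (vertical axis) in C14R and in the deletion, at day 0 (left) and day 18 (right). TRAP1 at day 18, known before it was chosen, stands at 0.28 and 0.32, and its intervals there are not a test. The intervals of the other genes include 0 apart from LONP1 in the deletion at day 18.

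Across the 9 genes other than TRAP1 at day 18, limma called 0 for C14R against WT (0.0363% of all genes called), 0 for the deletion against WT (0.0725% called) and 0 for C14R against the deletion (0.0290% called). Of these 9 genes, 0 had an unadjusted p under 0.05 for C14R against WT, 1 for the deletion against WT (LONP1, log2 difference 0.15, 95% interval 0.02 to 0.29) and 3 for C14R against the deletion (HSP90AA1, HSPA9 and HSPD1). Over all tested genes that share was 11.1%, 11.4% and 11.2%. With TRAP1 left aside as known beforehand, the 3 C14R libraries did not overlap the 3 WT libraries for HSPA8 alone, which was higher. Over all genes that share was 11.1% (5.44% higher and 5.64% lower). With TRAP1 again left aside, the deletion libraries did not overlap WT for HSPA8, CLPB and LONP1 (higher) and HSPA9 and HSPD1 (lower). Over all genes this held for 18.9% (10.4% higher and 8.53% lower). The interactions of construct and day called 0 of the 9 genes for C14R (0% of all genes) and for the deletion (0.0145%), and 0 of the 9 had an unadjusted p under 0.05 in either, beside 5.73% and 7.36% of all genes.

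The cytosolic HSP90 genes, whose products work with R2TP, had these day 18 values in the variants. HSP90AA1 in C14R was 107% of WT (log2 difference 0.10, 95% interval -0.0018 to 0.20) and in the deletion 98.1% (-0.03, interval -0.13 to 0.07). HSP90AB1 was 106% and 104% of WT (0.08 and 0.05). In C14R the SDs were larger than in WT, 39.5 against 20.2 FPKM for HSP90AA1, with replicate 1 the highest. That library stood apart on the second principal component of all tested genes (24.8, the other 17 between -8.27 and 9.27). Among the 9 day 18 libraries it was highest for 5 genes of the set (HSP90AA1, HSP90AB1, HSPA8, HSPA9 and HSPD1), lowest for CLPP and CLPB, and inside the range for TRAP1, HSPE1 and LONP1.

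Partner genes of the same systems were followed from lists of their own. Of 16 HSP90 co-chaperones and R2TP subunits, 2 rose and 12 fell in WT from day 0 to day 18 (median log2 change -0.29). For this list and those below, the shares over all tested genes in WT were 38.2% called higher and 34.0% called lower. RUVBL2 and RUVBL1, the AAA+ ATPases of R2TP, fell from 68.4 ± 1.77 to 35.9 ± 3.03 FPKM and from 77.6 ± 2.95 to 47.0 ± 0.579 (log2 changes -0.92 and -0.71, limma adjusted p = 3.13e-09 and 1.08e-11). RPAP3, the subunit that binds HSP90, rose from 14.6 ± 0.370 to 18.0 ± 1.26 FPKM (0.29, adjusted p = 0.000910), and STUB1, a ubiquitin ligase of the chaperones, rose by 0.44. FKBP5, a steroid receptor co-chaperone, fell by 0.83. C14R gave 2 higher and 11 lower (37.9% and 35.0% of all genes) and the deletion 2 and 12 (38.6% and 34.4%). With small RNA genes left out the WT counts were 3 and 7, in a fit where 68.7% of all called genes were higher.

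The chaperonin CCT, which folds actin and tubulin in the cytosol, fell: all 8 of its subunits were called lower in each construct, and in WT under each of the 4 scalings. Its median change was -0.51, from CCT5 (102 ± 0.452 to 52.8 ± 1.29 FPKM, -0.94) to CCT2 (157 ± 3.44 to 118 ± 1.83 FPKM, -0.41). In the cytosolic HSP70 system and heat shock response, 6 of 15 rose and 4 fell in WT (median 0.08), beside 38.2% and 34.0% of all genes. The inducible HSP70 genes HSPA1B and HSPA1A rose from 10.5 ± 0.801 to 18.5 ± 0.185 and from 8.16 ± 0.527 to 13.9 ± 0.670 FPKM (0.77 and 0.71, limma adjusted p = 2.30e-05 and 8.14e-06). HSPA1A and HSPA1B are near-identical copies, so their split is uncertain. CRYAB, a small heat shock protein, and BAG3, its partner in autophagy, fell by 1.57 and 0.52. With small RNA genes left out, 10 rose and 2 fell, in a fit where 68.7% of all called genes were higher.

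On the mitochondrial side, 2 of 15 HSP70 partners and import genes rose and 11 fell in WT (median -0.37), beside 38.2% and 34.0% of all genes. TOMM22, the central receptor of the outer membrane, fell from 47.8 ± 1.51 to 21.9 ± 0.652 FPKM (-1.09, limma adjusted p = 2.63e-10), and GRPEL1, the nucleotide exchange factor of HSPA9, from 21.0 ± 0.977 to 12.7 ± 0.715 (-0.68). Its paralogue GRPEL2 rose from 24.3 ± 0.639 to 29.96 ± 1.85 FPKM (0.29, adjusted p = 0.000211), and DNAJC19, a J-protein of the import motor, rose by 0.18. Other mitochondrial proteases gave 0 rises and 8 falls of 10, led by PMPCA and PMPCB, the subunits of the presequence peptidase (-0.71 and -0.51). Of 9 tested genes for mitochondrial content, 0 rose and 6 fell, with TFB2M, a transcription factor of mitochondrial DNA, at -0.85 and VDAC1, the outer membrane channel, at -0.70. With small RNA genes left out these 3 counts were 3 and 8, 0 and 5, and 3 and 5. In that fit 68.7% of all called genes were higher.

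**Figure D5:**
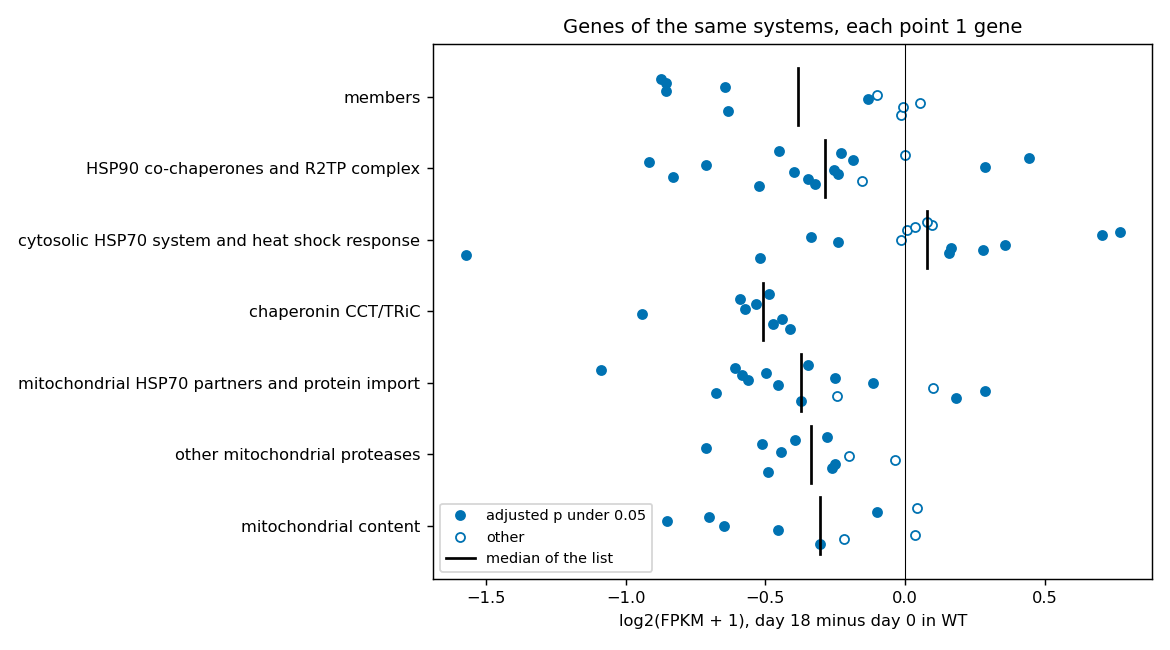
Change in log2(FPKM + 1) from day 0 to day 18 in WT (horizontal axis) for the 10 genes of the set and for 6 lists of related genes (vertical axis); each point is 1 gene, filled where the limma adjusted p is under 0.05, and black bars are medians. All 8 CCT genes lie between -0.94 and -0.41, and the heat shock list spans 0 with its median at 0.08.

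The HSP90 and HSP70 of the endoplasmic reticulum, HSP90B1 and HSPA5, also fell from day 0 to day 18 in WT, from 332 ± 2.17 to 296 ± 7.69 FPKM (-0.17, limma adjusted p = 0.000990) and from 107 ± 0.980 to 75.5 ± 3.76 (-0.50, adjusted p = 2.41e-07). With small RNA genes left out, 1 of the 2 was called lower, in a fit where 68.7% of all called genes were higher. Of the 75 tested genes of these 7 lists, limma called 0 in the comparisons of a variant with WT at either day and in both interactions. An unadjusted p under 0.05 was found at day 0 for 0 genes in C14R and 4 in the deletion, at day 18 for 10 and 14, and in the interactions for 8 and 7. Over all 13785 genes that share was 2.81% and 6.22% at day 0, 11.1% and 11.4% at day 18, and 5.73% and 7.36% in the interactions.

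Patterns over the 18 libraries were compared by Pearson correlation of log2(FPKM + 1), as a description. The libraries share the day contrast, which sets most of these values. EEF2, the translocase of translation elongation (r = 0.99), and GATAD2A (0.98) were among the genes nearest to TRAP1, and 2104 of 13784 genes exceeded 0.9. GNL3, EIF2S3 and DDX21, genes of the nucleolus and of translation initiation, were nearest to HSPD1 (each 1.00 after rounding), with 2894 genes above 0.9. CLPB had no gene above 0.9, and ZNF771 was nearest (0.75).

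The label of the cells was checked on markers. The noradrenergic list (9 genes, 8 of them with a mean of at least 1 FPKM) summed to 795 to 865 FPKM at day 0 and 1133 to 1302 at day 18. Within it DBH was at 56.2 to 69.2 and then 288 to 476 FPKM, and TH was at most 1.02. Of the 8 tested genes of this list, limma called 3 higher and 3 lower in WT over time. Their median log2 change was 0.03, and the shares over all genes were 38.2% higher and 34.0% lower. Sums of 5 fibroblast markers went from 60.6 to 70.2 FPKM down to 14.8 to 20.7, and those of 4 epithelial markers, mostly KRT18, from 30.8 to 42.4 down to 2.10 to 4.54. Leukocyte and glial markers summed to at most 1.01 FPKM. The fibroblast and epithelial sums moved with the day in the same direction as the 5 matrix genes, and their part in those falls was not tested. Within day 18 the fibroblast sums were 19.0 to 20.7 FPKM in WT, 15.4 to 18.1 in C14R and 14.8 to 17.5 in the deletion, while TRAP1 was higher in the variants; their part in that difference was not tested.

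Copies of the genes elsewhere could have taken or given reads. GENCODE 29 lists 26 pseudogenes named for HSPE1, 17 for HSPD1, 17 for HSPA8, 5 for HSP90AB1, 4 for HSP90AA1 and 1 for HSPA9, of which 1 had a row in the table. TRAP1, CLPP, CLPB and LONP1 had 0. The readthrough transcript HSPE1-MOB4 averaged 0.148 FPKM, beside 119 for HSPE1.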

How the data were processed

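Per the labels' protocols, RNA was extracted with TRIzol, treated with DNase I and depleted of ribosomal RNA before NEBNext Ultra library preparation. The authors deposited FPKM, 1 value per gene symbol and library. The submitters' processing notes name TopHat2, STAR, Cufflinks 2.2.1 and hg38, without their roles. The annotation and the use of strand are not given in the sources used here. The unit came from the name of the deposited table. FPKM carry no read counts, so depth is unknown and no counting interval was given. FPKM sums per library ran from 987586 to 2222220 at day 0 and from 553539 to 989589 at day 18. There were 0 columns of values without a sample.

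All values were used on the log2(FPKM + 1) scale, which understates changes of low genes. Genes with a mean FPKM of at least 1 (13785 of 26372) were tested in 1 fit of 6 group means over 18 libraries (12 residual degrees of freedom) with limma 3.58.1 in R 4.3.3, with a mean-variance trend and Benjamini-Hochberg adjustment within each comparison. The fit was tested on simulated data. Members, lists and tests were chosen with earlier results of these data known. All 10 members are named, and TRAP1 is not counted among the tested members in the day 18 construct comparisons and the interactions. It is counted in day 18 against day 0, which uses the same day 18 libraries. A marker and a gene near TRAP1 in pattern are not reported here. Among the called genes of each list in WT over time, the 2 that rose most and the 2 that fell most are named. RUVBL1, CCT2, CLPX and the range of a list were added after their values had been seen. TOMM70 was matched as TOMM70A. The fit was repeated with 0.1 as the pseudocount, with a minimum mean of 5 FPKM or none, and with only the libraries compared. Scaling was varied by median-of-ratios, by quantile normalization and by omitting small RNA genes. A replicate block was added, and single libraries were left out. Chosen after seeing the data were array weights and the omission of C14R replicate 1 of day 18 from comparisons that do not use it.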

Additional observations from a re-analysis of the deposited data

How the results depend on the processing

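The falls of TRAP1, HSPD1, HSPE1, LONP1 and CLPP from day 0 to day 18 kept their direction and their call in WT, C14R and the deletion under every alternative run. The small changes of the other 5 genes did not. Under median-of-ratios scaling, day 18 against day 0 turned to -0.028 for HSPA9 and -0.024 for CLPB in C14R, and to -0.030 for HSP90AA1 and -0.036 for CLPB in the deletion. Quantile normalization turned it to 0.42 for HSP90AA1, 0.35 for HSPA8 and 0.00026 for HSPA9 in WT, to 0.37 for HSPA8 and -0.015 for CLPB in C14R, and to 0.34 for HSPA8 in the deletion. With small RNA genes left out it was 0.20 for HSP90AA1, 0.076 for HSPA8, 0.11 for HSPA9 and 0.19 for CLPB in WT, 0.14 for HSPA8 in C14R, and 0.10 for HSPA8 and 0.065 for HSPA9 in the deletion. Array weights gave -0.072 for HSPA9 in C14R. The cause was not tested. The day 0 differences of TRAP1 changed sign within their intervals: C14R minus deletion was 0.0041 under quantile normalization and 0.033 with small RNA genes left out, and C14R minus WT 0.00091 with small RNA genes left out.

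Leaving out 1 library at a time gave, over time, -0.040 to 0.015 for HSP90AA1 and -0.030 to 0.0100 for CLPB in WT, -0.055 to 0.065 for HSPA9 and -0.038 to 0.062 for CLPB in C14R, and -0.045 to 0.060 for CLPB in the deletion. For TRAP1 at day 0 it gave -0.040 to 0.0016 for C14R minus WT, -0.054 to 0.021 for the deletion minus WT and -0.040 to 0.035 for C14R minus deletion. At day 18 the comparisons of a variant with WT called 0 of the 9 genes other than TRAP1 under every alternative run. Where a group was left with 2 libraries, the spread was pooled over all groups.

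The replicate number as a block gave 6 calls for day 18 against day 0 in C14R, where HSP90AA1 was lost (limma adjusted p = 0.0501). It changed no other call tested. Same-numbered libraries did not deviate together: over 27 pairs the correlation ran from -0.36 to 0.17, 4 exceeded 0.1, and in 9 a library correlated best with its own number. With 3 libraries a group and no counts, the precision is that of the printed 95% intervals.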
